A study of Mus musculus with 4 samples.

Results

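The nuclear genes of oxidative phosphorylation were followed in distal jejunum after small intestinal ischemia/reperfusion (I/R). Members were all genes whose symbols begin with Nduf, Uqcr, Atp5 or Cox4 to Cox8 and that held at least 20 UMIs (unique molecular identifiers, each standing for 1 captured transcript) over the 4 mice. Of 90 genes with such symbols among 32286 features, 87 passed. They comprised 37 subunits and 8 assembly factors of complex I, 8 genes of complex III, 17 of complex IV and 17 of ATP synthase, with Ndufa4 and Ndufa4l2 counted under complex IV. The members just inside the limit were Cox4i2 with 123 UMIs, Ndufa4l2 with 361 and Cox6a2 with 450, and those just outside were Cox8b with 14 and Cox7b2 and Cox8c with 0. The 87 members lie on 19 chromosomes, and 12 of them overlap another gene on their own strand, such as Ndufa13 with Yjefn3, so that reads of such pairs could be split between them. Ndufb1-ps carries the name of a pseudogene.

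The respiratory chain passes electrons from complex I (or complex II) through complex III to complex IV, which reduces oxygen, and the proton gradient so built drives ATP synthase. The mitochondrial genome encodes a few core subunits, here called mt- genes, and the nucleus encodes all other subunits, so the 2 genomes must supply matching parts. Several complex IV subunits have tissue-specific paralogs: Cox6a2 and Cox7a1 are known from heart and skeletal muscle, Cox6b2 from testis, Cox4i2 from oxygen-sensing cells, and Ndufa4l2 is a known target of hypoxia-inducible factor.

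Single-cell libraries were made from 2 Control mice (Foxc1fl/fl;Foxc2fl/fl) and 2 EC-Foxc-DKO mice (Cdh5-CreERT2;Foxc1fl/fl;Foxc2fl/fl), 18.5 h after I/R. All 4 carried the floxed alleles, and by the study's methods adult male mice were given tamoxifen, which in the second group activates Cre in blood and lymphatic endothelial cells (BECs and LECs). No sham library was analysed here, so nothing below compares injured with uninjured tissue. The files held 22679 barcodes with 3623 to 7347 per mouse and 15557181 to 72046346 UMIs per library. Of these, 5615 barcodes (24.8%) had at most 10% of their UMIs on mt- genes, the study's limit, and are called kept cells. The second Control mouse gave 348 kept cells and the others 1079 to 2742. Kept cells fell into 24 clusters, of which markers named 21 types. The cluster named CD8+ T cells also had the gamma delta receptor genes Trdc, Tcrg-C1 and Tcrg-C2 among its top 10 genes. That named CD4+ T cells had Cd8b1 among its own, so neither name stands for a pure type. Members and mt- genes were left out of the genes used for clustering, but types were defined in the same cells in which the members were then measured. There were 51 barcodes present in more than 1 library, and 2 of them were kept in 2 libraries. The median UMIs of a kept cell ran from 4255 to 19871 among mice.

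Members took very different shares of the RNA of different cell types. The share is the percentage of UMIs of all genes other than mt- genes that fell on the 87 members, in each mouse with at least 5 cells of the type. Enterocytes of the villus bottom stood at the top with 6.32% ± 0.818 (SD, n = 4 mice), where Control mice gave 6.50% and 7.21% and EC-Foxc-DKO mice gave 6.33% and 5.23%. Crypt cells followed with 5.18% ± 0.325 (n = 4), tuft cells with 4.50% ± 0.479 (n = 3), middle enterocytes with 4.20% ± 0.758 (n = 4) and Sprr2a3-high epithelial cells with 3.23% ± 0.221 (n = 3). All 5 of these were epithelial. Below them lay Myocytes/Pericytes (2.58%), germinal center B cells (2.55%), enteroendocrine cells (2.52%), macrophages (2.34%), plasmacytoid dendritic cells (2.27%), CD8+ T cells (2.20%), goblet and Paneth cells (2.15% ± 0.946, n = 3) and enteric glia (2.07%). BECs held 1.81% ± 0.149 (n = 4), CD4+ T cells 1.74%, follicular B cells 1.64%, plasma cells 1.40%, LECs 1.37% and stromal cells 1.36%.

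The 2 lowest types were enterocytes of the villus top, with 1.02% ± 0.0836 (n = 2 mice with enough cells), and neutrophils, with 0.942% ± 0.145 (n = 3). Enterocytes thus spanned the range from the highest mean share to the second lowest. Of neighbors in the order, only stromal cells and top enterocytes did not overlap between mice, and all other neighbors overlapped, so that the fine order is not resolved. Plasma cells gave 45.3% to 68.0% of their non-mt UMIs to immunoglobulin genes, which lowers the share of every other gene there. In CD4+ T cells these genes took 18.8% in Control 2, 2.12% in EC-Foxc-DKO 1 and 22.9% in EC-Foxc-DKO 2. Over the 21 types, the Spearman correlation of the mean member share with the mean share of mt- UMIs was 0.316. This is a description only, since both come from the same cells and every kept cell is at or below 10%. Crypt cells, second in member share, had 4.78% of their UMIs on mt- genes, and top enterocytes, second from the bottom, had 7.52%.

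**Figure D1:**
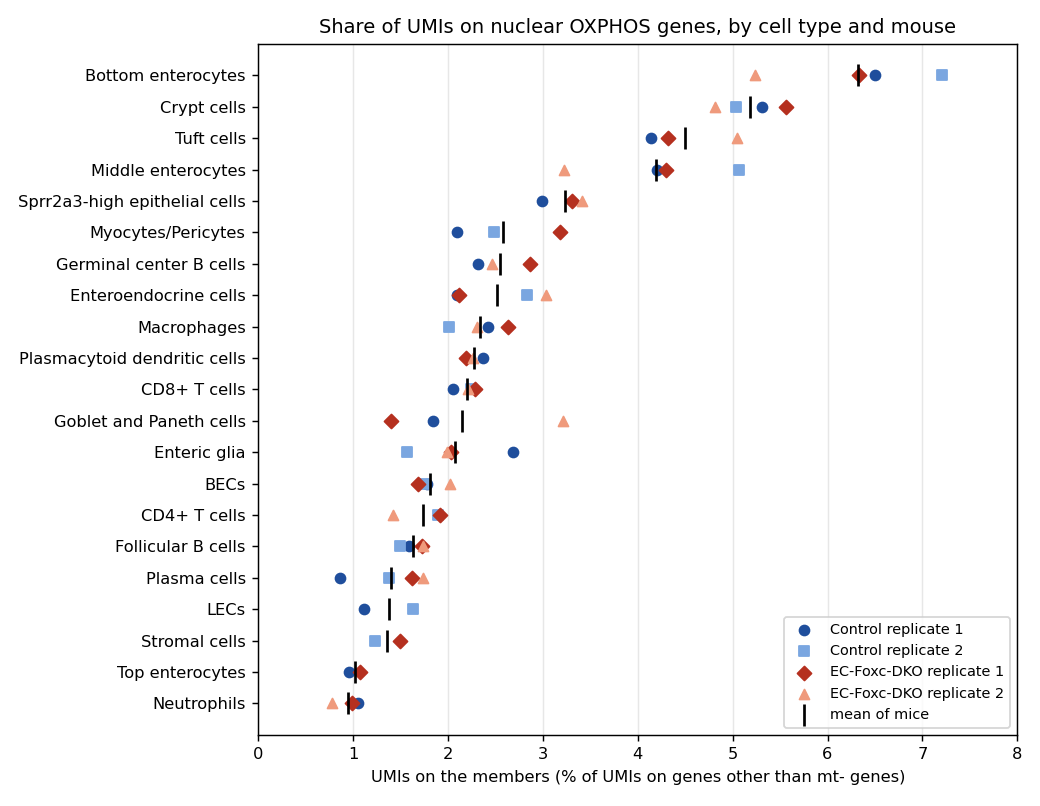
Each point is the share of UMIs on the 87 members (x axis, percent of UMIs on genes other than mt- genes) in 1 mouse and cell type (y axis, ordered by mean); the black ticks are means over mice with at least 5 cells. Bottom enterocytes lie highest with 5.23% to 7.21%, and neutrophils lowest with 0.778% to 1.05%.

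Most members followed the same order. By mean level, given here as CPM (UMIs of a gene per 1e+06 UMIs on genes other than mt- genes), 57 of the 87 members were highest in bottom enterocytes and 17 in crypt cells, while 39 were lowest in neutrophils and 26 in top enterocytes. UMIs are counted at transcript ends and carry no length term, so levels are compared for 1 gene between cell types. Of all member UMIs, 31.5% fell on ATP synthase, 31.0% on complex IV, 25.3% on complex I, 11.7% on complex III and 0.542% on complex I assembly factors.

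In the 8 types with at least 10 kept cells in every mouse, each type was tested against the mean of the other 7 in 1 edgeR fit with mouse as a covariate, over 8730 genes of which 81 were members. In bottom enterocytes 78 of the 81 members were higher, against 32.8% of all genes tested, with a median log2 difference of 1.77 (median of all genes -0.26). This held for 37 of 37 complex I subunits, 8 of 8 genes of complex III, 13 of 13 of complex IV and 17 of 17 of ATP synthase, but for 3 of 6 assembly factors. Atp5o, a stalk subunit of ATP synthase, stood at 1563 and 1558 CPM in Control 1 and 2 and at 1495 and 1133 CPM in EC-Foxc-DKO 1 and 2. In BECs the same gene stood at 257, 133, 204 and 191, well below all 4 values. Its log2 difference was 2.58 ± 0.11 (SE, edgeR adjusted p = 1.76e-21). Atp5g3, which encodes the membrane ring of ATP synthase, was higher by 2.51 on the log2 scale, Uqcrc1, a core protein of complex III, by 2.46, and Uqcrfs1, its Rieske iron-sulfur protein, by 2.32.

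Crypt cells were the other type with broadly higher members, with 70 of 81 called higher (33.7% of all genes tested were) and a median log2 difference of 1.06. Of the 5 members with the largest differences in each type, Cox7a1 and Uqcrc1 were in both. The complex I assembly factors Ndufaf6 (log2 difference 2.48 ± 0.24) and Ndufaf4 (1.89 ± 0.15) were 2 of the 5 with the largest differences by edgeR, and 5 of 6 assembly factors were higher. Ndufaf4 stood at 170, 103, 153 and 226 CPM in crypt cells of the 4 mice and at 40.2, 43.8, 45.7 and 46.2 in bottom enterocytes, so the 2 types did not overlap. Atp5g1, another gene for the membrane ring, was higher by 1.84 and Uqcrc1 by 1.69. Ndufa1, an X-linked accessory subunit of complex I, went the other way and was the single member called lower (-0.39 ± 0.16, adjusted p = 0.0348; 27.3% of all genes were lower).

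The mt- genes did not follow the nuclear members in both types. In bottom enterocytes 13 of 13 mt- genes were higher by edgeR (median log2 difference 1.01), as were 16 of 16 genes of the TCA cycle and 11 of 18 of the mitochondrial ribosome and translation. In crypt cells 0 of 13 mt- genes were higher and 3 were lower (median -0.34), while 16 of 16 TCA cycle genes and 17 of 18 genes of the mitochondrial ribosome and translation were higher. Whether the difference between the types in mt- genes exceeds that in members was not tested. Kept cells were chosen by their mt- share, which caps the mt- genes in every type.

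BECs, enteric glia, follicular B cells and CD8+ T cells lay lower. The mean each was set against includes bottom enterocytes and crypt cells, so these contrasts partly mirror the high levels there. In BECs 70 of 81 members were lower (17.1% of all genes tested; median log2 difference -0.91), led, among members with UMIs there, by the ATP synthase genes Atp5mpl (-1.72), Atp5md (-1.64) and Atp5g3 (-1.58) and by Cox7b (-1.55). In enteric glia 54 were lower (11% of all genes; median -0.77), with Cox5a at -1.60 ± 0.21. In follicular B cells 59 were lower (15.9%; median -0.68), with Uqcrq and Uqcr11, small subunits of complex III, at -1.61 and -1.48. In CD8+ T cells 40 were lower (17.4%) and 3 were higher (Ndufaf7, Ndufa13 and Cox7a2l; 27.7% of all genes were higher). Macrophages lay near the mean, with a median of -0.10. In macrophages 9 members (11.1%) were lower, under the 14.2% of all genes. Another 3 were higher (Ndufb1-ps, Ndufb8 and Ndufb6), where 30.4% of all genes were higher. The count lower there was 29 with DESeq2, 21 with RLE size factors and 5 without EC-Foxc-DKO 2, and members with a positive sign numbered 31 by the main scaling, 17 with DESeq2 and 16 with RLE. Of 14 glycolysis genes tested in macrophages 13 were higher by edgeR, against the same 30.4% of all genes (median 1.39).

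Cox7a2l, a scaffold protein of respiratory supercomplexes, departed from this order. It was the single member higher in follicular B cells, where 27.4% of all genes were higher (log2 difference 0.80 ± 0.18, edgeR adjusted p = 0.00046). It stood there at 384, 323, 474 and 542 CPM. In CD8+ T cells it was also higher (0.50 ± 0.18), and in macrophages, at 154 to 186 CPM, it was lower (-0.71 ± 0.19). Its mean in follicular B cells, 431 CPM, was the highest of the 21 types.

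Plasma cells depended on the scale. Their share of UMIs was among the lowest. On the TMM-normalized scale of the fit, which sets aside the few dominant genes, 11 of 81 members (13.6%) were higher and 0 lower. That is near the 11.6% of all genes that were higher. The median of members was 0.05, and it was -0.03 with DESeq2 and -0.04 with RLE size factors. Of the 11, 9 were complex I subunits, which made up 37 of the 81 tested. Ndufa1 led with a log2 difference of 2.16 ± 0.16 (edgeR adjusted p = 8.28e-14), followed by Ndufa4 with 1.13 ± 0.15 and Uqcrq with 0.85 ± 0.18. Ndufa1 stood at 337 and 386 CPM in the Control and 298 and 472 in the EC-Foxc-DKO plasma cells, next to 141 to 207 in crypt cells. In CPM it was not particular to plasma cells (mean 373), with means of 396 in tuft cells, its highest type, 341 in middle and 332 in bottom enterocytes. The count of members higher in plasma cells fell to 6 with RLE size factors. It fell to 4 without Control 2 or without EC-Foxc-DKO 1, and Ndufa1, Ndufa4, Uqcrq and Ndufb11 were the 4 in both.

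**Figure D2:**
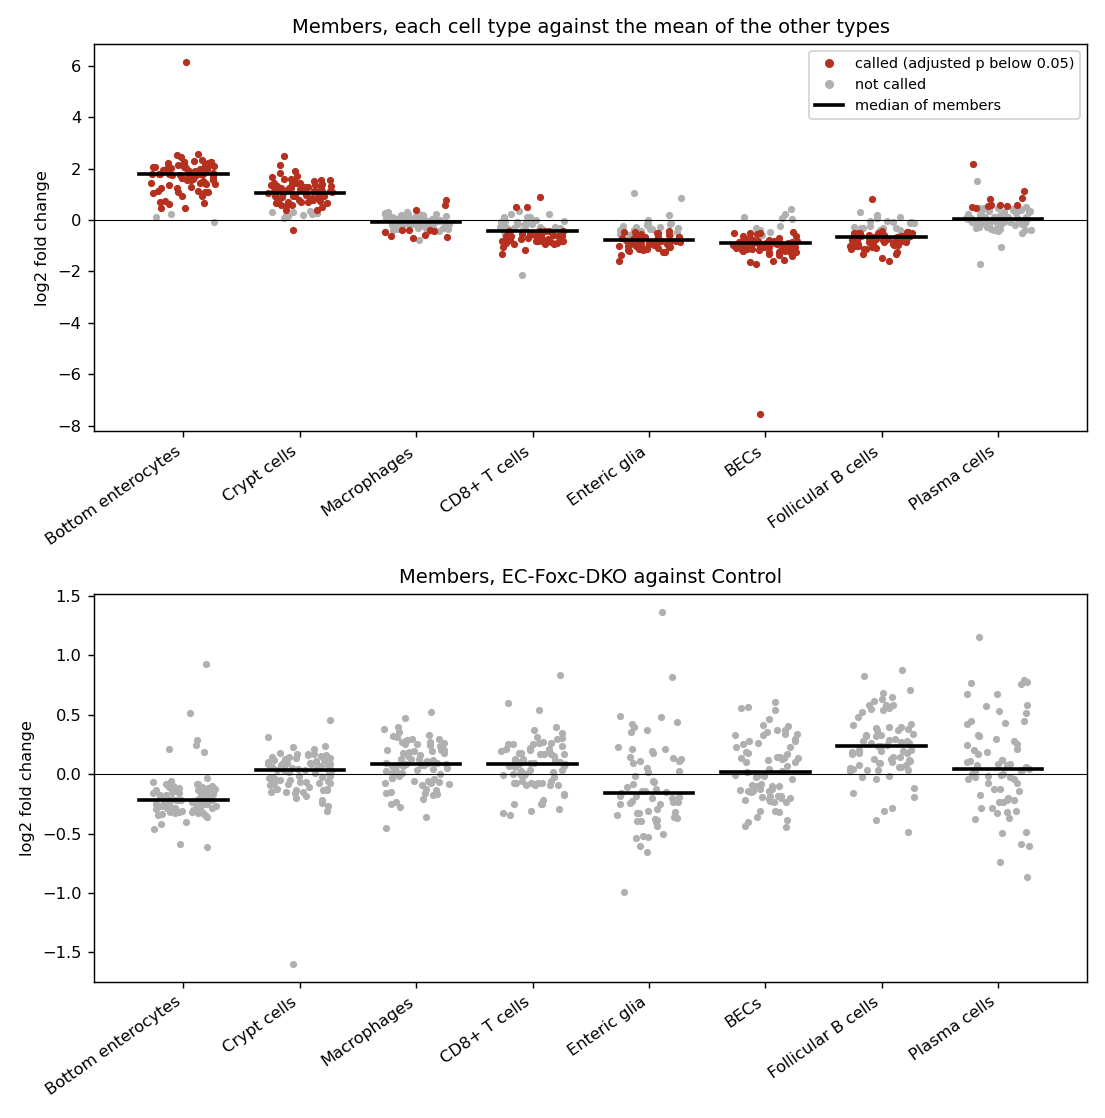
Each point is the edgeR log2 fold change (y axis) of 1 member in 1 of 8 cell types (x axis), for the type against the mean of the other types (upper panel) and for EC-Foxc-DKO against Control (lower panel); red points were called and black bars are medians. In the upper panel members lie above 0 in bottom enterocytes and crypt cells, and in the lower panel none is red.

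Restricted paralogs of complex IV were concentrated in 1 or a few cell types, whereas their common counterparts were present in all 21. Their levels are given as a description, since the types rest on the same cells. Cox6a2 was found in 21 of 32 plasmacytoid dendritic cells (65.6%, exact 95% interval 46.8 to 81.4), which held 78.4% of the gene's UMIs in kept cells. Its levels there were 834, 2725, 1007 and 596 CPM in Control 1 and 2 and EC-Foxc-DKO 1 and 2, the second value from 2 cells. In follicular B cells 0 of 1378 had a UMI, so that the share of cells with a UMI could reach 0.218%, which sets no limit on cells that express it at a low level. The median depths of the 2 types were 8230 and 3247 UMIs. Its counterpart Cox6a1 stood at 181 to 238 CPM in the plasmacytoid dendritic cells, and its means over the 21 types ran from 129 to 987 CPM.

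Ndufa4l2 and Cox4i2 shared a cell type. Ndufa4l2 had UMIs in 34 of 45 Myocytes/Pericytes (75.6%, interval 60.5 to 87.1), at 782, 552, 403 and 810 CPM, and Cox4i2 in 20 of 45 (44.4%), at 391, 133, 89.0 and 0, the last from 2 cells. In BECs Ndufa4l2 had no UMI in either Control mouse, where 3 counts would be 20.8 and 14.2 CPM, whereas EC-Foxc-DKO 1 and 2 stood at 32.8 and 45.5. These were 19 UMIs in 4 cells. The 4 cells had a median of 9125 CPM on the 12 markers of Myocytes/Pericytes (range 441 to 14329), against 977 in the 168 other BECs (at most 4540), with the BEC markers at 26282 and 36121. Their part in the difference was not tested. Ndufa4l2 was too low in BECs to enter the main test, and it was the 1 member called there without the filter on low counts. This gene was singled out after its values were seen.

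Cox6b2 was highest in top enterocytes, where 213 of 324 cells (65.7%) had a UMI, at 149, 410, 216 and 0 CPM, the second from 3 cells and the last from 2. In middle enterocytes it stood at 11.6 to 21.7 CPM and in bottom enterocytes at a mean of 2.29. It also had a UMI in 136 of 607 middle enterocytes and 81 of 270 Sprr2a3-high epithelial cells. The latter had a mean of 22.2 CPM. Means outside the epithelium were as high, with 35.3 CPM in stromal cells, 26.9 in enteric glia and 22.7 in Myocytes/Pericytes. LECs had 23.4, from 1 UMI in Control 1. Of the 87 members it was the single one with a higher mean in top than in bottom enterocytes, and the other 86 had a lower mean. Its counterpart Cox6b1 averaged 1487 CPM in bottom enterocytes, 938 in middle enterocytes and 323 in top enterocytes.

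Cox7a1 was epithelial. It had UMIs in 96.8% of 686 bottom enterocytes, at 333, 377, 320 and 267 CPM. In 270 Sprr2a3-high epithelial cells 96.3% had UMIs, at 345, 326, 410 and 331, the second from 2 cells. In 607 middle enterocytes 83.7% had UMIs. The 4 mice overlapped between the first 2 types. Crypt cells held 8.27 to 56.2 CPM in spite of their greater depth, and BECs, LECs and stromal cells held no UMI. In other types outside the epithelium means reached 18.3 CPM in enteric glia and 16.8 in neutrophils, the latter from 6 UMIs in 2 cells of Control 1. Over all BECs, 3 counts would be 3.36 CPM, so the pooled level in bottom enterocytes was at least 91.0-fold higher and that in Sprr2a3-high epithelial cells at least 103-fold. The fitted differences of Cox7a1 between types (6.16 in bottom enterocytes, -7.54 in BECs) rest on the small count added before the logarithm and are no measure of size. Ndufa5, a complex I subunit, ranged from a mean of 420 CPM in crypt cells to no UMI in the neutrophils of the 3 mice that had any. Over all neutrophils 3 counts would be 16.4 CPM, and its mean in top enterocytes was 16.3, so these 2 types are not told apart.

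**Figure D3:**
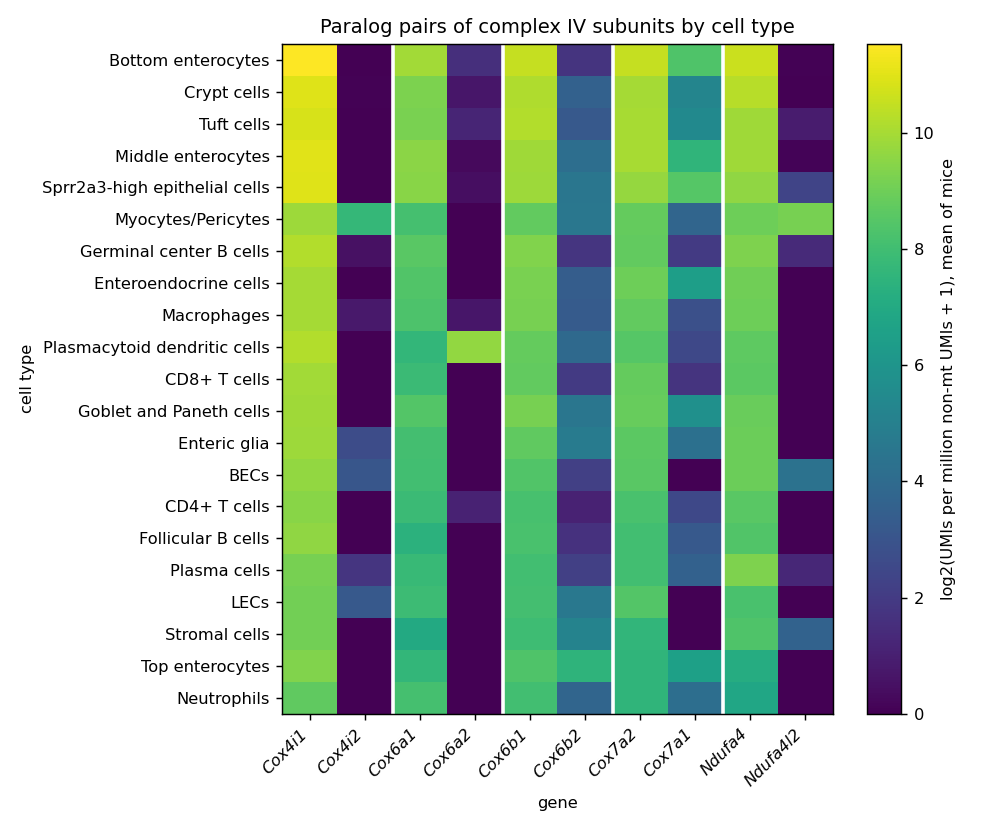
Color gives the mean level over mice (log2 of CPM plus 1) of 5 pairs of complex IV paralogs (x axis, common form first) in 21 cell types (y axis, ordered by member share). The common forms are filled in all types, and Cox6a2, Cox4i2 and Ndufa4l2 are bright in 1 type each.

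Promoters of common and restricted paralogs were set side by side for the 2 pairs in which RefSeq (GRCm38.p6) gave a window for both. RefSeq windows of 300 bases, 250 before the start and 50 after, matched 70 of the 87 members. Letter sets were searched on both strands. A gene with several windows counted as matched if any of them matched. The NRF1 core, GCATGCGC, occurred in 11 of the 70 members (15.7%, against 3.05% of all 27025 genes with a window). The ETS core, CCGGAAG, occurred in 17 members (24.3%, against 9.93% of all these genes). The YY1 core, AAGATGGC, occurred in 10 members (14.3%, against 3.19%). The GC box, GGGCGG, occurred in 31 members (44.3%, against 38.2%). The TATA box, TATAAA, occurred in 6 members (8.57%, against 15.7%). A match is a description of letters and not a site. The 150 bases before each start follow, 5′ to 3′, with capitals marking matched letters.
Cox6b1, common form, chr7:30626115-30626264, minus strand: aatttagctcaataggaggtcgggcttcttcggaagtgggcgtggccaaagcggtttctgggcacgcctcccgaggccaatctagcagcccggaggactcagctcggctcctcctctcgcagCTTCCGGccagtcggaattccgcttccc
Cox6b2, top enterocytes, chr7:4753095-4753244, minus strand: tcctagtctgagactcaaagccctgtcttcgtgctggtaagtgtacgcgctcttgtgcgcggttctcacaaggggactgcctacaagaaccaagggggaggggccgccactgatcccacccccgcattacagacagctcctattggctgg
Cox7a2, common form, chr9:79759854-79760003, minus strand: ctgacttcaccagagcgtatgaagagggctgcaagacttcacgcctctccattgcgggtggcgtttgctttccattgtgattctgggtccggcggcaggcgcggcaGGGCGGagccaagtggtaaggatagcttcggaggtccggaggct
Cox7a1, epithelial, chr7:30184021-30184170, plus strand: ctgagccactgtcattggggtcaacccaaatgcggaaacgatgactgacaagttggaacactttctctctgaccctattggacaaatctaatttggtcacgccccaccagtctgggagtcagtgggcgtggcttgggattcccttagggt
The capitals are the ETS letters read on the opposite strand in Cox6b1, 28 bases before the start, and the GC box in Cox7a2, 44 bases before it. The 150 bases of Cox6b2 and Cox7a1 held none of the 5 letter sets. In the whole window of 300 bases Cox6b2 held a GC box and Cox7a1 held none.

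Between genotypes no member passed the test. In each of the same 8 types edgeR's quasi-likelihood test called 0 members, and DESeq2 also called 0. In counts simulated from these sums, changes were given to genes drawn from all those tested, not from the members alone. All log2 changes of 1 were decreases, of which the edgeR test recovered 9% in BECs and 6% in bottom enterocytes. All log2 changes of 2 were increases, of which it recovered 94% and 84%. Size and direction thus cannot be told apart in these rates. Most of the simulated decreases of 1 were missed, and a lack of calls does not show equal levels. Of all genes tested 0% were called in BECs, bottom enterocytes, CD8+ T cells, crypt cells, enteric glia, follicular B cells and macrophages, and 0.0894% in plasma cells. At an unadjusted p under 0.05 there were 3 of 609 tests of members (0.493%), against 2.6% of the tests of all genes: Ndufaf1 in bottom enterocytes (log2 fold change 0.93 ± 0.34, EC-Foxc-DKO over Control), Ndufb7 in CD8+ T cells (0.60 ± 0.22) and Cox4i1 in follicular B cells (0.65 ± 0.29). Ndufaf1, a complex I assembly factor, stood at 9.62 and 5.30 CPM in the Control and 17.1 and 14.6 in the EC-Foxc-DKO bottom enterocytes. In BECs, where the genes were deleted, 37 of 73 members tested had a positive sign.

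Small shifts over many members appeared in 2 types. In bottom enterocytes 6 of 85 members had a positive sign (median log2 fold change -0.22, median of all genes 0.01), and in follicular B cells 65 of 75 did (median 0.24, median of all genes -0.01). Members share their cells and libraries, so these counts are descriptions. Without the first EC-Foxc-DKO mouse the median of members in bottom enterocytes was -0.30, and without the second it was -0.12. Each such fit takes the spread of the lone remaining EC-Foxc-DKO mouse to be that of the Control mice. Without the first EC-Foxc-DKO mouse 33 members had a positive sign in follicular B cells, and without Control 1, 43 did. With 2 mice a group the smallest 2-sided exact p for a single value is 0.333, so shares were not tested between genotypes. By share, bottom enterocytes had a Control mean of 6.85% and an EC-Foxc-DKO mean of 5.78%, follicular B cells 1.54% and 1.73%, and plasma cells 1.12% and 1.68%, without overlap of mice in any of the 3. In the other types with at least 5 cells in every mouse, the mice of the groups overlapped. In BECs the shares were 1.78% and 1.74% for Control 1 and 2, and EC-Foxc-DKO 1 and 2 had 1.68% and 2.02%.

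The mt- limit set aside 17064 barcodes, and members took a lower share of the remaining RNA in them. Above 10% mt- UMIs the member share of non-mt UMIs was 3.01%, 2.80%, 2.76% and 2.87% in Control 1 and 2 and EC-Foxc-DKO 1 and 2, against 4.21%, 3.82%, 3.63% and 4.41% at or below the limit. It was lower in 4 of 4 mice, by 1.16 percentage points on average (SD 0.289). The smallest 2-sided exact p for 4 pairs is 0.125. The mean difference was -1.11 points for Control and -1.20 for EC-Foxc-DKO. The mix of cell types differs between the 2 classes of barcodes, and in this pooled view mix and change within cells cannot be told apart.

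The member share was highest from 5 to 10% mt- UMIs in 3 of 4 mice. From 0 to 5% mt- UMIs it was 2.77% to 3.24% in 3 mice and 4.51% in EC-Foxc-DKO 2, from 5 to 10% it was 3.96% to 4.42%, from 10 to 20% 3.40% to 3.83%, and from 40 to 60% 1.16% to 1.67%. It fell in all 4 mice from the 10 to 20% bin to the 20 to 40% bin (1.61% to 2.16%). Depth moved with it, and the median of non-mt UMIs per barcode was between 2788 and 11586 in the 10 to 20% bin and between 164 and 213 above 80%. Nuclear-retained RNA (Malat1, Neat1 and others) took 1.25% to 2.92% of non-mt UMIs in the 10 to 20% bin and 5.39% to 9.31% in the 40 to 60% bin. The part of depth and of nuclear RNA in the member share was not tested.

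**Figure D4:**
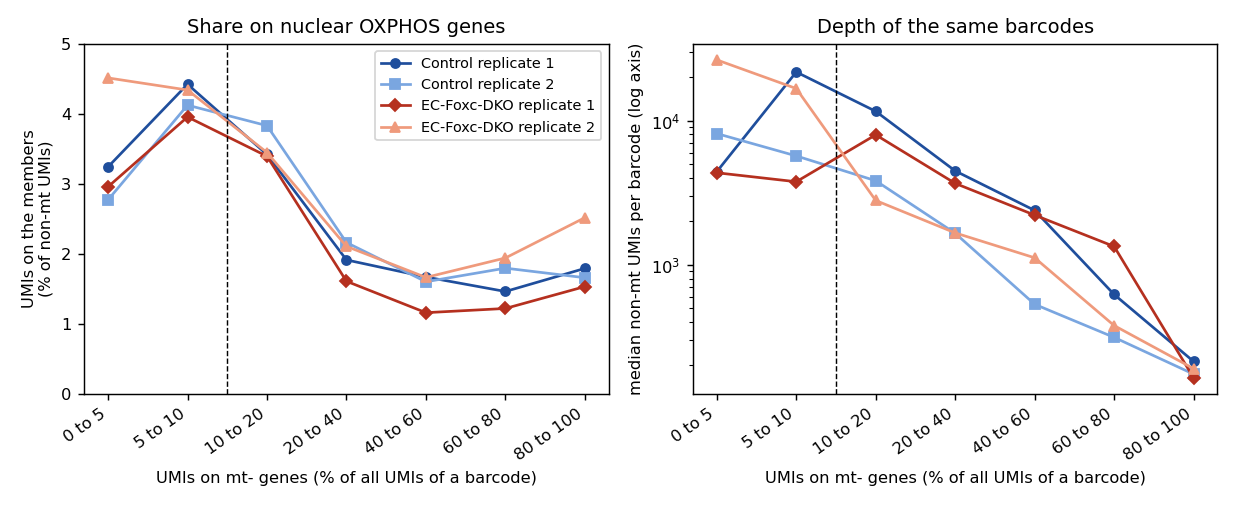
The left panel plots the share of non-mt UMIs on members (y axis, percent) and the right panel the median non-mt UMIs per barcode (y axis, log scale) against bins of the mt- share of a barcode (x axis, percent), with 1 line per mouse and the limit of 10% dashed. The mt- share is taken over UMIs on genes of the authors' joined table. The member share is 3.96% to 4.42% at 5 to 10% and 1.16% to 1.67% at 40 to 60%.

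Gene by gene, edgeR with mouse as a block called 15 of the 87 members lower above the limit (8.98% of 14591 genes tested were lower) and 1 higher (8.2% were higher), with a median log2 difference of -0.43 (all genes -0.04). The count called lower depended on the mice, and without Control 1, Control 2 or EC-Foxc-DKO 1 it was 0, and without EC-Foxc-DKO 2 it was 17. With the limit set at 20% it was 79. The share of all genes called in these settings is not given, so they show only how far the count moved. Of the 8 assembly factors 5 were lower, led by Ndufaf6 (-1.63 ± 0.22) and Ndufaf4 (-1.20 ± 0.19). Ndufaf4 was at 13.7 against 28.9, 18.5 against 38.2, 15.7 against 42.3 and 28.7 against 87.2 CPM, lower above the limit in every mouse. Cox6b2 was the single member higher (1.55 ± 0.18, adjusted p = 0.016), at 53.9 against 26.1, 51.1 against 14.998, 63.8 against 21.4 and 14.7 against 5.37. Ndufaf6 and Ndufaf4 were highest in crypt cells and Cox6b2 in top enterocytes among kept cells.

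Lists outside the respiratory chain also moved. A chosen list of 16 genes held cytosolic ribosomal proteins and the elongation factor Eef1a1. By the same edgeR fit 11 of these 16 were lower (median log2 difference -0.95). So were 12 of 18 genes of the mitochondrial ribosome and translation (-0.76) and 3 of 16 of the TCA cycle (-0.41). Of the 4 nuclear-retained RNAs, Malat1 (1.81) and Neat1 (1.56) were higher. Kcnq1ot1 and Meg3 stood lower above the limit in both Control mice and EC-Foxc-DKO 1, and higher in EC-Foxc-DKO 2. Malat1 held 27895.5 to 40841.1 CPM above the limit, so the share of this list is mostly that of 1 gene. Of 11 regulators of mitochondrial genes 2 were lower and the median was -0.05.

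Within cell types the difference varied, with the lowest mean ratio in goblet and Paneth cells. Barcodes above the limit were given the type of their nearest kept neighbors, where at least 80% of those agreed, which named 8500 of 17064. Over 12 types, the member share was lower above the limit in 34 of 41 pairs of type and mouse, and in every mouse in 7 of the types. In goblet and Paneth cells it was 0.725% against 1.84%, 1.03% against 1.40% and 1.61% against 3.21% in the 3 mice with enough barcodes. There 54 of 76 members were lower by edgeR (13.8% of all genes tested; median log2 difference -1.06), with Atp5g1 at -1.94 ± 0.38. In middle enterocytes 66 of 84 were lower (14.6%) with a smaller median of -0.38. In Sprr2a3-high epithelial cells 12 of 78 were lower (2.56%), with Ndufb11 first at -1.02 ± 0.19. These counts leaned on single mice. In goblet and Paneth cells 17 members were lower without Control 1 and 0 without EC-Foxc-DKO 1, and in middle enterocytes 21 without Control 1. In Sprr2a3-high epithelial cells the count was 0 without Control 1, 52 without EC-Foxc-DKO 1 and 3 without EC-Foxc-DKO 2.

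Bottom enterocytes, where members were most abundant, had the smallest median log2 difference of the epithelial types tested (-0.08). Their share above the limit was 0.928 to 0.998 times that below, and 5 of 84 members were lower (2.8% of all genes tested), namely Ndufs3, Ndufa8, Atp5g2, Uqcrb and Ndufb11, with log2 differences from -0.19 to -0.23. That count was 18 without Control 2 and 0 without any other mouse. In the other 8 types edgeR called 0 members. Of all genes it called 3.5% in BECs, 5.57% in CD4+ T cells, 0.959% in CD8+ T cells, 2.23% in enteroendocrine cells, 1.16% in follicular B cells, 0.72% in tuft cells and 0% in enteric glia and plasma cells. In those 8, DESeq2 called 2 in plasma cells (Ndufa4 and Ndufa1) and 1 in tuft cells (Atp5g2), and members at an unadjusted p under 0.05 numbered from 1 in enteric glia to 27 in CD8+ T cells and in tuft cells. At that threshold stood 5.39% of all genes in enteric glia, 14.5% in CD8+ T cells and 21.5% in tuft cells, against 1.54%, 35.5% and 34.2% of members. Atp5g2, another gene for the membrane ring of ATP synthase, had a log2 difference below 0 in 12 of 12 types and was lower by edgeR in 4. This was counted for Atp5g2 alone and does not set it apart. Members with a negative sign ran from 35 of 65 in enteric glia to 77 of 78 in Sprr2a3-high epithelial cells. In plasma cells the direction depended on the scale. By share the ratio reached 1.70 and was lower in 1 of 4 mice, whereas on the TMM-normalized scale 48 of 65 members had a negative sign (median log2 difference -0.28, all genes -0.12). Ndufa4 (-1.66) and Ndufa1 (-1.49) had edgeR adjusted p = 0.109 there.

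Depth, nuclear RNA and ribosomal protein RNA moved with the member share within types as well. Above the limit median depth was lower in 40 of 41 pairs and nuclear-retained RNA higher in 35. The list of cytosolic ribosomal proteins with Eef1a1 was lower in 37. In goblet and Paneth cells 16 of 16 genes of this list were lower (median -2.03), and in middle enterocytes 16 of 16 (median -0.59). The part of these in the member differences was not tested. Among single cells with at least 1000 non-mt UMIs, the Spearman correlation of mt- share and member share within a type and mouse ran from -0.618 to 0.278 over 48 pairs (median -0.082). That of depth and member share had a median of 0.261 and a maximum of 0.792, in goblet and Paneth cells of EC-Foxc-DKO 1. For this type it was 0.423 in Control 1 and 0.726 in EC-Foxc-DKO 2. Median shares of these kept cells were 0.704%, 0.726% and 2.65% in Control 1 and EC-Foxc-DKO 1 and 2. The pooled shares were 1.84%, 1.40% and 3.21%.

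**Figure D5:**
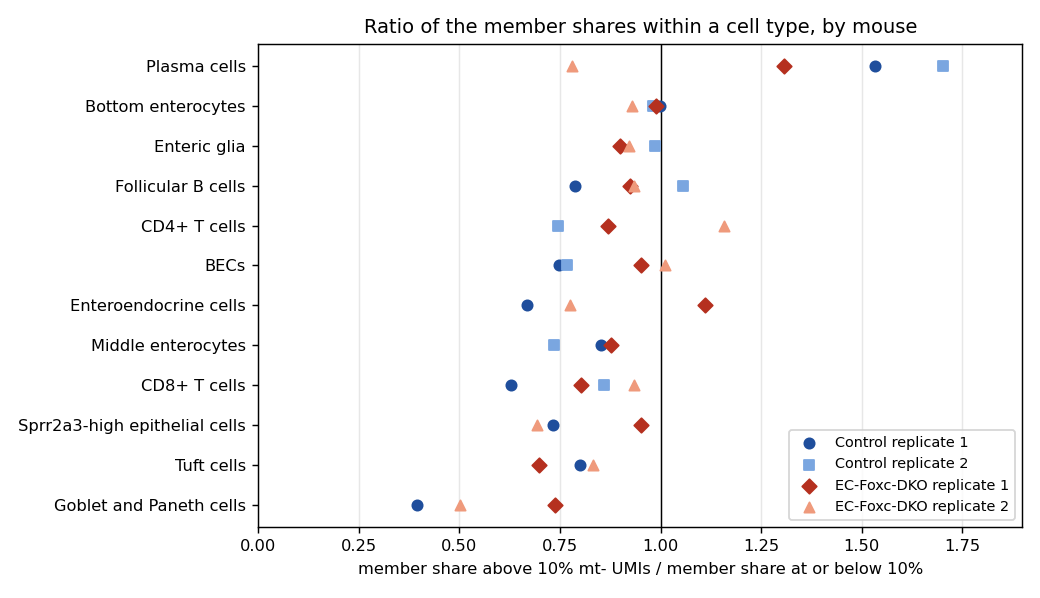
Each point is the member share above 10% mt- UMIs divided by that at or below 10% (x axis, ratio) in 1 mouse and cell type (y axis, ordered by mean ratio). Ratios run from 0.395 to 0.738 in goblet and Paneth cells, lie near 1 in bottom enterocytes (0.928 to 0.998) and reach 1.70 in plasma cells.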

How the data were processed

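Cells of the distal jejunum from 4 mice, 2 per genotype, were profiled by 10x 3' single-cell RNA-seq. The authors deposited counts of UMIs per gene and barcode, made with Cell Ranger against mm10. GEO's processing notes and the file headers give version 4.0.0 and the study's methods another. The deposited counts were read as they stand. The 87 members and the gene lists were chosen with earlier results of these data known.

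Cells were kept at 10% or less mt- UMIs, over UMIs on genes of the authors' joined table. They were normalized to 10000 UMIs, reduced to 15 principal components and clustered (scanpy 1.11.5, leidenalg 0.10.2, 15 neighbors, resolution 0.5), after dropping genes with a mean below 0.001. Clusters were named from fixed marker lists. The automatic doublet threshold marked 0.232% of cells and was not used. Removing 5.20% by score was an alternative. UMIs of each cell type were added up within a mouse, and the sums were tested with edgeR 4.0.16 (R 4.3.3; quasi-likelihood, filterByExpr, TMM; Benjamini-Hochberg over all genes tested, 0.05). With 2 mice a group, p-values between genotypes measure the spread between these mice. Fits between cell types, and those above against below the limit over all barcodes, held mouse as a covariate. Their p-values measure the spread left after it, over sums from the same 4 mice. Intervals are exact (Clopper-Pearson) and cover counting error only, as does the limit of 3 counts behind a share of 0. DESeq2 1.42.0, RLE factors, no filter, other limits and leaving out each mouse were alternatives. In each type that was tested the members named are the 5 in each direction with the largest log2 difference among those called, or the 3 with the smallest p where none was called, with the paralogs of complex IV, core subunits and the widest ranges. The labels give same-numbered mice no link other than the number, so the main fits did not pair them. The correlation of the deviations of Control 1 and EC-Foxc-DKO 1 was -0.427 to 0.049 over 8 types. Whether any mice shared a litter, day or batch cannot be told from it. Coordinates are GENCODE vM21 (GRCm38).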

Additional observations from a re-analysis of the deposited data

Results flagged for a closer look

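The share of non-mt UMIs on members had both EC-Foxc-DKO mice on the same side of both Control mice in 3 cell types. In follicular B cells it was 0.193 percentage points higher in EC-Foxc-DKO (1.73% against 1.54%), and in plasma cells 0.556 points higher (1.68% against 1.12%). In bottom enterocytes the difference was -1.07 points (5.78% against 6.85%). The differences between these cell types were not tested, and 2 mice a group cannot reach an exact p below 0.333. In any type where genotype has no effect, such a lack of overlap has a probability of 0.333. The groups overlapped in BECs, CD8+ T cells, crypt cells, enteric glia, enteroendocrine cells, macrophages and middle enterocytes, the other types compared. In plasma cells immunoglobulin genes took 45.3% to 68.0% of non-mt UMIs, and their part in the difference was not tested.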

How the results depend on the processing

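Of the summary results, 364 recomputed values stayed on the same side of the threshold and close to the reported value, while 26 moved, 10 newly passed the threshold and 9 no longer passed it. A turn of direction was not scored for these counts and shares. The median log2 fold change of members between genotypes did turn in some settings. In enteric glia it went from -0.15 to 0.28 without Control 1. The cause was not tested for any of these changes. Shares of all genes called under each alternative setting are not given. Counts under these settings, below and in the Results, thus show only how far the counts moved.

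Between genotypes, 1 member was called in BECs with no filter on low counts. With 1 mouse left out, a group rests on a lone mouse, so calls between genotypes are not given for these fits. In them the median log2 fold change of members in bottom enterocytes ran from -0.30 to -0.12. The replicate block, which pairs mice by number, called 0 members in each of 8 types, as did a crossed pairing chosen after seeing the data. Between cell types, members lower in CD8+ T cells numbered 61 with DESeq2. Members lower in macrophages numbered 29 with DESeq2, 21 with RLE size factors, 3 with no filter and 17 with the mt- limit at 20%, and 5 to 10 with 1 mouse left out. Members higher in plasma cells numbered 6 with RLE, 5 with no filter and 4 to 9 with 1 mouse left out. Above against below the mt- limit, members lower numbered 7 with RLE, 9 with no filter, 79 with the limit at 20%, 0 with no mouse block and 0 to 17 with 1 mouse left out.

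Within cell types, an agreement of 50% gave 20 members lower in bottom enterocytes and 55 in Sprr2a3-high epithelial cells. No filter gave 11 and 43 in these types, 6 called in tuft cells and 1 in BECs (Cox6a2). DESeq2 gave 34 lower in goblet and Paneth cells, 2 called in plasma cells and 1 in tuft cells. With 1 mouse left out the counts ran from 0 to 18 in bottom enterocytes, 0 to 3 in CD4+ T cells, 0 to 1 in CD8+ T cells, 0 to 54 in goblet and Paneth cells, 21 to 74 in middle enterocytes, 0 to 2 in plasma cells, 0 to 52 in Sprr2a3-high epithelial cells and 0 to 4 in tuft cells. With all UMIs as the denominator the member share was 2.16% in plasmacytoid dendritic cells and 2.08% in CD8+ T cells. Plasma cells could not be fitted with the mt- limit at 20%. Cell numbers limit the rare types: EC-Foxc-DKO 2 gave 1 stromal cell and 0 LECs, and Control 2 gave 0 neutrophils.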
